A study of Rattus norvegicus with 52 samples.

Results

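The 10 heat shock protein and chaperone genes described here are Hspa5, Hsp90b1, Hsp90aa1, Hsp90ab1, Hspa8, Hsph1, Dnajb1, Hspb1, Hspd1 and Hspe1. They were taken by name from the 13811 genes represented on the arrays, through the gene symbols of the platform annotation. The choice was made with earlier results of these data known, and every member is named whatever its value. 15 probe sets carried 1 of these symbols. 11 of them named 1 gene alone and stood for 8 of the 10 genes, and all 11 passed a brightness filter that left 15473 of 31142 probe sets to be tested. The other 4 also named pseudogenes or another gene. Hspa8 and Hsp90aa1 had only such shared probe sets, which are described by their identifiers and left out of every count of members.

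Messenger RNA was measured in the left kidney of 26 male rats on a pair of Affymetrix arrays, RAE230A and RAE230B, with 1 rat on each pair. The rats came from the inbred Dahl salt-sensitive strain SS/jr, called S, and from the congenic strains ET3x1 and ET3x2, in which a chromosome segment of the Dahl salt-resistant rat R lies on the S background. The labels give neither the bounds nor the genes of these segments, so whether any gene named here lies within one was not tested. All rats were 40 to 42 days old and had eaten 0.4% NaCl since weaning at 30 days. The low salt groups stayed on that diet (5 S, 4 ET3x1 and 4 ET3x2 rats), and the high salt groups of the same sizes ate 4% NaCl for the last 24 hours. Each rat is a separate animal, and the number of arrays limits the precision of every value.

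Chaperones bind unfolded or partly folded proteins and help them fold, assemble or be degraded. Cytosolic members of the HSP70, HSP90 and HSP40 families, small heat shock proteins and the mitochondrial chaperonin are induced by heat shock factors that bind repeated GAA units in promoters. The endoplasmic reticulum has its own HSP70 and HSP90, which are induced by the unfolded protein response. In the kidney, tubule cells meet wide changes of salt and osmolality, and several chaperones are known to protect them.

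The deposited values are log2 signals, and a difference of 1 is a doubling. A difference was called when its p-value from limma, adjusted by Benjamini-Hochberg over all 15473 probe sets of the comparison, was below 0.05. Levels are not compared between probe sets. All 10 markers of the proximal tubule, thick ascending limb and distal and collecting duct passed the brightness filter, and none of the 6 probed markers of adrenal, liver and skeletal muscle did. The quality measures moved with some groups. The 3′ minus 5′ difference of the Gapdh probe sets on RAE230A was 0.877 ± 0.0994 (SD, n = 4) in ET3x1 rats on low salt and 0.594 ± 0.0265 (SD, n = 4) on high salt, with no overlap. The exact permutation p for that comparison was 0.0286, the smallest that 4 against 4 rats can give, or 0.0735 after adjustment over 18 such tests. In S the Gapdh means were 0.827 on low salt and 0.813 on high salt (exact permutation p = 0.706), and in ET3x2 0.948 and 0.747 (exact permutation p = 0.0571). On high salt the Gapdh measure of every ET3x1 rat lay below that of every S rat (exact permutation p = 0.0159, adjusted p = 0.0735). The spike-in difference bioD minus bioC was 2.54 in ET3x1 on low salt and 3.08 on high salt, without overlap (exact permutation p = 0.0286). Within that low salt group it was 2.30 and 2.38 in rats 1 and 2, and 2.75 and 2.74 in rats 3 and 4. It was 2.29 in ET3x2 and 2.83 in S on low salt, also without overlap (exact permutation p = 0.0159). On high salt, S rats 1 and 2 stood apart in this measure, which was 1.65 and 1.55 in them and at least 2.14 in each of the other rats on RAE230A. Members were also fitted without these rats and with either measure as a covariate.

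After 24 hours of high salt, averaged over the strains, the signal of Hspa5 and of 1 Hsph1 probe set fell and the signal of 1 Hsp90ab1 probe set and of Hspe1 rose. 4 of the 11 member probe sets were thus called, 2 higher and 2 lower, where 14.5% of all tested probe sets were called. In ET3x1 rats alone, 6 of 11 were called, 2 higher (Hsp90ab1 and Hspe1) and 4 lower (Hspa5, Hspb1, Hsph1 and Dnajb1), against 15.9% of all probe sets. In S rats 1 of 11 was called, Hsp90ab1 higher, against 2.78%. With the Gapdh measure as a covariate, limma called 0 of the 11 members averaged over the strains and 0 of 11 in ET3x1, with 25 and 6 of 15473 probe sets called in all; the part of RNA quality in these results was not tested further. In ET3x2 rats limma called 0 of 11, against 0.304%, and 1 had an unadjusted p below 0.05. The median salt difference of the 11 was 0.03 in ET3x1 rats, beside a median of -0.03 over all tested probe sets, since members moved in opposite directions.

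**Figure D1:**
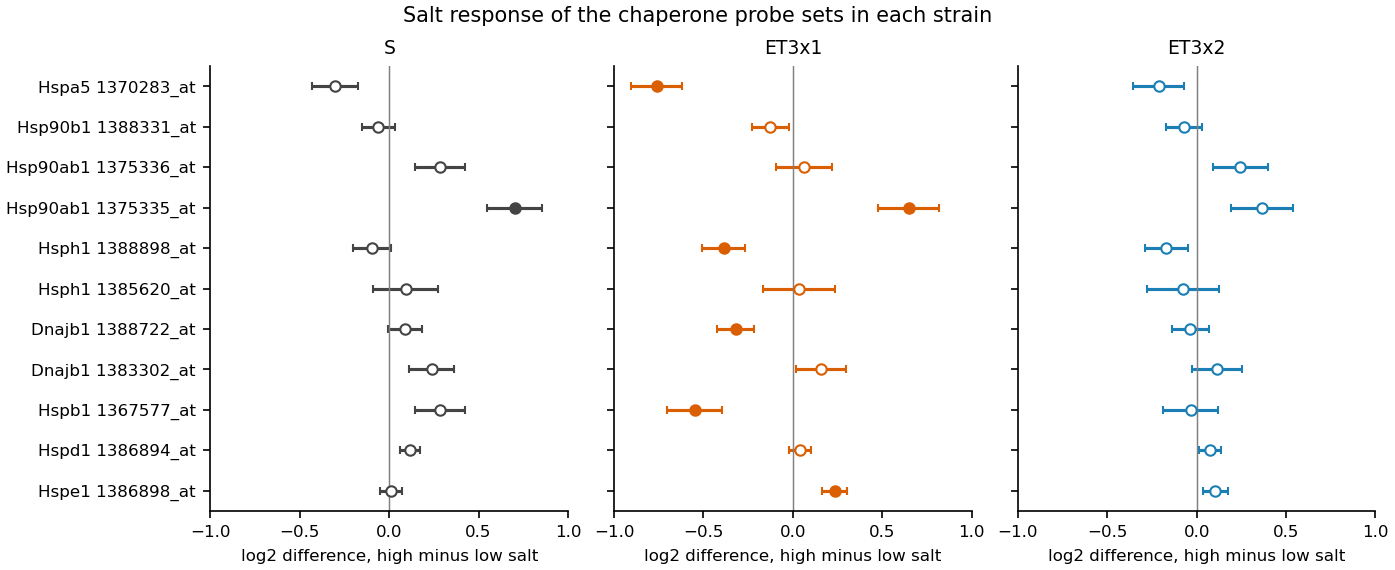
Log2 difference between high and low salt (x axis) for the 11 probe sets that name 1 member gene (y axis) in S (5 against 5 rats), ET3x1 and ET3x2 (4 against 4 rats each). Points are limma estimates, bars are standard errors, and filled points passed an adjusted p of 0.05: 1 in S, 6 in ET3x1 and 0 in ET3x2, with Hspa5 at -0.76 and Hsp90ab1 probe set 1375335_at at 0.65 in ET3x1.

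Between strains on low salt, Hspb1 and 1 Dnajb1 probe set were higher in each congenic strain than in S, and Hsp90b1 was lower in ET3x2 than in S. For ET3x1 against S on low salt 2 of 11 were called, both higher, against 26.8% of all probe sets called, so the share of members was not above the background. For ET3x2 against S on low salt 3 of 11 were called, 2 higher and 1 lower, against 18.2%. Both comparisons use the same S rats. On high salt limma called 0 of 11 for ET3x1 against S, with 2 at an unadjusted p below 0.05, where 14.5% of all probe sets were called. It also called 0 of 11 for ET3x2 against S, again with 2 at an unadjusted p below 0.05, where 4.25% were called.

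Averaged over the diets, 2 of 11 were called for ET3x1 against S, 1 higher (Dnajb1) and 1 lower (Hspd1), against a background of 32.3%, and 3 of 11 for ET3x2 against S, 2 higher (Hspb1 and Dnajb1) and 1 lower (Hsp90b1), against 28.5%. Between the congenic strains limma called 0 of 11 averaged over the diets (background 11.1%), 0 on low salt (2.73%) and 0 on high salt (9.22%), with 1, 1 and 2 at an unadjusted p below 0.05.

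**Figure D2:**
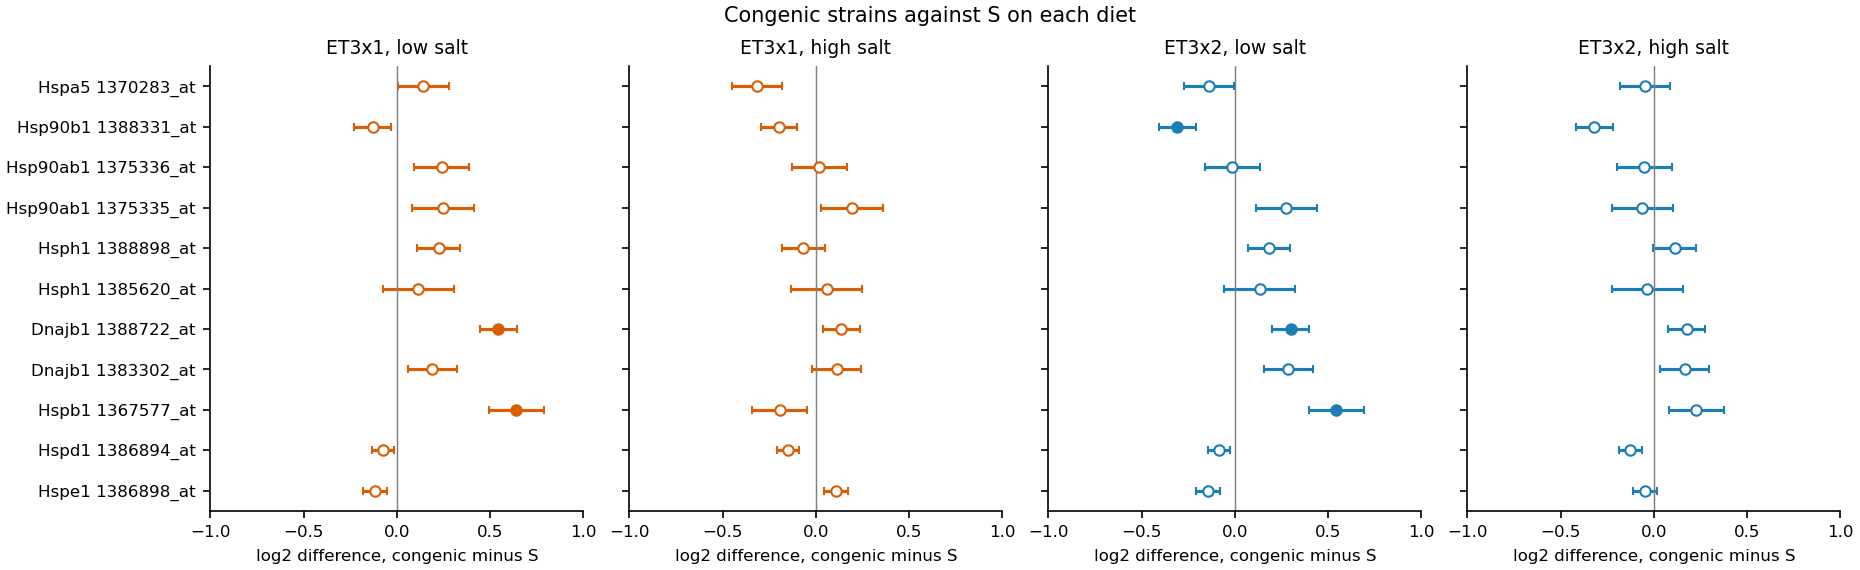
Log2 difference between each congenic strain and S (x axis) for the 11 member probe sets (y axis), on low salt and on high salt; all panels of a diet use the same 5 S rats. Points are limma estimates, bars are standard errors and filled points passed an adjusted p of 0.05: Hspb1 and Dnajb1 probe set 1388722_at in both low salt panels, Hsp90b1 in the ET3x2 low salt panel, and none on high salt.

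Hspa5 encodes BiP, the HSP70 of the endoplasmic reticulum, which holds unfolded proteins and keeps the sensors of the unfolded protein response inactive. Its promoter and that of Hsp90b1, which encodes GRP94, the HSP90 of the same compartment, are shown because both hold the endoplasmic reticulum stress element, the sequence through which that response acts. The 250 bases before each start are printed from RefSeq, build GRCr8, 5′ to 3′ on the strand of the gene, with the fixed letters of the element in capitals: Hspa5 at chr3:38452766-38453015 on the plus strand and Hsp90b1 at chr7:23012294-23012543 on the minus strand.
Hspa5: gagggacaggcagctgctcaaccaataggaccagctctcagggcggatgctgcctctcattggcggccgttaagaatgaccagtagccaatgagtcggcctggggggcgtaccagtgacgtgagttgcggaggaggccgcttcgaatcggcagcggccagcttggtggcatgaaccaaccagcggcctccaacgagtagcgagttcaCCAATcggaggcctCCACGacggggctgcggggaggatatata
Hsp90b1: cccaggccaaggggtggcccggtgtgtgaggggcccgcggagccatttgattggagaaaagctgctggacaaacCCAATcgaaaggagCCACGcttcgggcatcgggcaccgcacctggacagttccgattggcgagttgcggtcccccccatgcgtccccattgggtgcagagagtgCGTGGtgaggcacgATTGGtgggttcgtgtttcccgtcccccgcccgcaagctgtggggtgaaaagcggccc
The element was searched as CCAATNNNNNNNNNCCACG on both strands, and 22 of 33469 RefSeq promoters of this length (0.0657%) held it. Hspa5 held it 43 to 25 bases before the start. Hsp90b1 held it 176 to 158 bases before the start and, on the other strand, 72 to 54 bases before it. A match is a description of the letters and not evidence of a bound site. The other promoters with a match included those of Calr, Canx, Creld2 and Xbp1, which are tested further below.

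In S rats, Hspa5 read 11.20, 11.10, 11.18, 11.22 and 11.59 on low salt and 10.75, 10.81, 11.12, 10.99 and 11.10 on high salt. In ET3x1 rats it read 10.98, 11.17, 11.73 and 11.71 on low salt and 10.62, 10.66, 10.52 and 10.76 on high salt. In ET3x2 rats it read 11.06, 11.44, 10.82 and 11.15 on low salt and 10.90, 11.02, 11.00 and 10.70 on high salt. The groups of ET3x1 did not overlap and those of the other strains did, and rats 3 and 4 of ET3x1 on low salt had the highest signals of all 26 rats. In whole tissue, fewer cells of a type and less RNA per cell cannot be told apart.

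Hspa5 fell by 0.76 on the log2 scale in ET3x1 rats (SE 0.14, 1.69-fold, limma adjusted p = 6.4e-04). The difference was -0.30 in S (SE 0.13, adjusted p = 0.198) and -0.21 in ET3x2 (SE 0.14, adjusted p = 0.625), and neither passed. Averaged over the strains Hspa5 fell by 0.42 (SE 0.08, adjusted p = 5.8e-04). In that comparison 2 of 2 tested podocyte markers (Podxl and Synpo, median -0.17) and 1 of 2 endothelial markers (Pecam1) were also called lower, and 1 of 4 distal and collecting duct and 1 of 3 leukocyte markers higher; in ET3x1 alone 1 of 19 tested markers was called, lower. The part of cell makeup in the salt results was not tested. The salt response of ET3x1 minus that of S was -0.46 (SE 0.19, adjusted p = 0.15), so the fall is not shown to differ between strains. Both calls held whichever single rat was left out, with differences of -0.90 to -0.65 in ET3x1. With the Gapdh 3′ minus 5′ measure as a covariate the difference in ET3x1 was -0.81 and the adjusted p was 0.14.

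Hsp90b1 was not called for salt. Averaged over the strains its difference between high and low salt was -0.09 (SE 0.06, limma adjusted p = 0.344). It differed between ET3x2 and S. S rats read 11.21, 11.30, 11.32, 11.36 and 11.51 on low salt and 11.37, 11.27, 11.32, 11.19 and 11.25 on high salt. ET3x2 rats read 11.11, 11.17, 10.83 and 11.02 on low salt and 11.01, 10.98, 11.09 and 10.77 on high salt, so every ET3x2 rat lay below every S rat.

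Averaged over the diets, Hsp90b1 was lower in ET3x2 than in S, with a log2 difference of -0.31 (SE 0.07, 1.24-fold, limma adjusted p = 0.00182), and it was called with any single rat left out. In the same comparison 7 of 19 tested cell type markers were called lower and 4 higher: 2 of 2 of podocytes (median -0.36), 2 of 4 of the proximal tubule (Lrp2 and Cubn), 1 of 2 of the thick ascending limb, 1 of 2 of endothelium and 1 of 4 of the distal and collecting duct were lower, and 3 of 3 of leukocytes and 1 of 2 of red cells higher. Their part in the Hsp90b1 difference was not tested. The differences on low salt, -0.31 (SE 0.10, adjusted p = 0.028), and on high salt, -0.32 (SE 0.10, adjusted p = 0.0578), stood side by side, and the difference between them was -0.01 (SE 0.14, adjusted p = 0.987). The low salt call was lost without ET3x2 rat 3 or 4 or S rat 5 of that diet, at adjusted p up to 0.0838, and with the Gapdh measure as a covariate (-0.22, adjusted p = 0.171) or bioD minus bioC (-0.29, adjusted p = 0.106). ET3x1 rats read 11.12, 10.83, 11.49 and 11.40 on low salt, spanning both other strains, and 11.06, 11.07, 11.12 and 11.09 on high salt, below every S rat of that diet. Groups that do not overlap were common: 1 of 11 members for ET3x1 against S on high salt, where 15.1% of all probe sets did not overlap, and 1 of 11 for ET3x2 against S on each diet, where 12.4% (low salt) and 10.5% (high salt) did not.

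**Figure D3:**
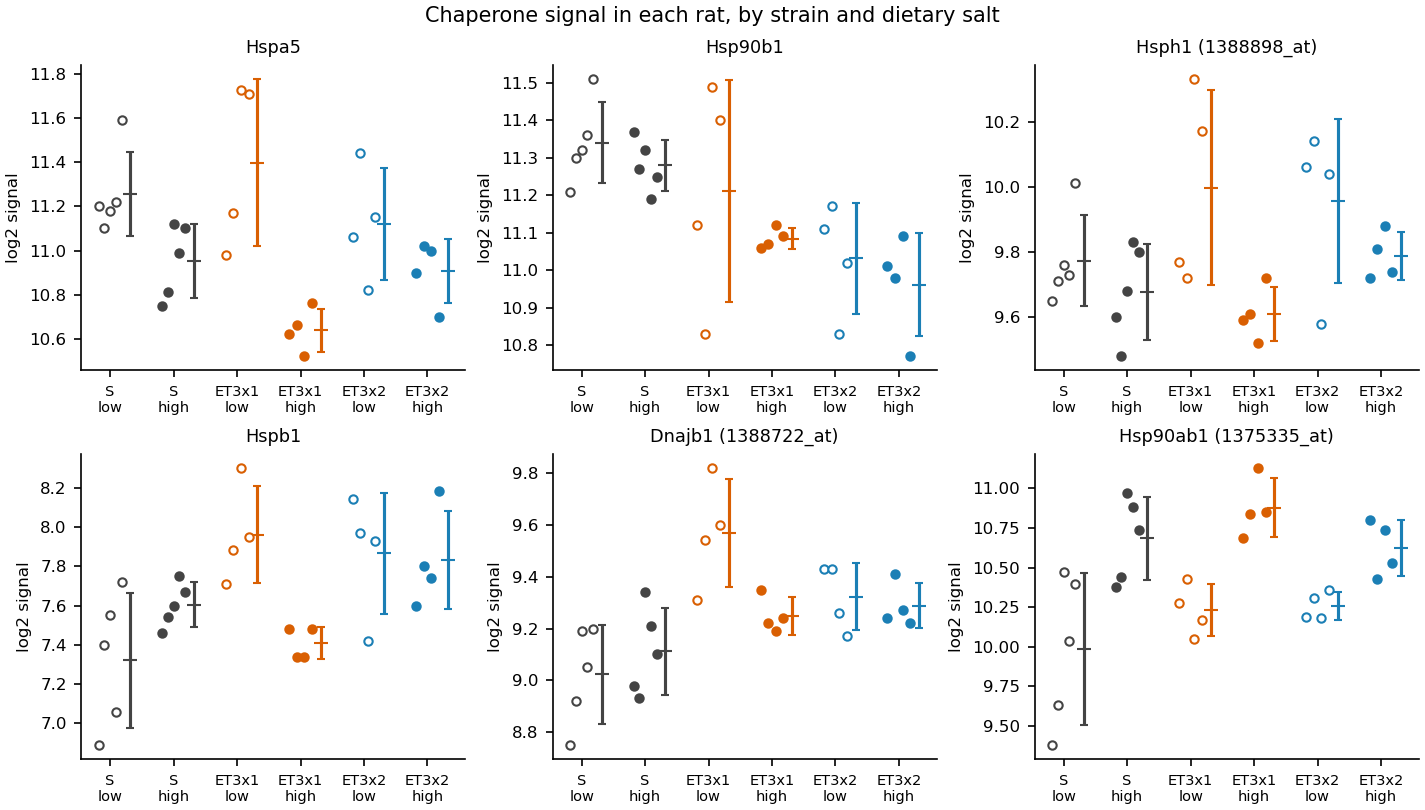
Log2 signal (y axis) of 6 member probe sets in each of the 26 rats, by strain and diet (x axis), with open points for low salt and filled points for high salt. The bars beside the points are the group mean ± SD (n = 5 for S, n = 4 for each congenic group). Hspa5 falls from 11.40 to 10.64 on high salt in ET3x1, and Hsp90b1 is below the S rats in all ET3x2 rats.

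Hsp90ab1 encodes the constitutive cytosolic HSP90, and Hsp90aa1 its more inducible partner. Both stabilise kinases and steroid hormone receptors, the mineralocorticoid receptor among them. The probe sets of Hsp90ab1 differed in how far they moved with salt. Probe set 1375335_at read 9.38, 9.63, 10.47, 10.04 and 10.40 in S on low salt and 10.38, 10.44, 10.97, 10.88 and 10.74 on high salt. In ET3x1 it read 10.28, 10.43, 10.05 and 10.17 on low salt and 10.69, 10.84, 11.13 and 10.85 on high salt. In ET3x2 it read 10.19, 10.31, 10.18 and 10.36 on low salt and 10.80, 10.43, 10.74 and 10.53 on high salt.

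High salt rats were above low salt rats without overlap in both congenic strains, and the S groups overlapped through 2 low salt rats. Over all members, 5 of 11 did not overlap in ET3x1, 2 of them higher and 3 lower on high salt, where 20.0% of all probe sets did not. In ET3x2 1 of 11 did not, against 6.62%, and in S 0 of 11, against 3.54%. Probe set 1375335_at rose by 0.57 averaged over the strains (SE 0.10, 1.49-fold, limma adjusted p = 2.3e-04). It rose by 0.70 in S (SE 0.15, adjusted p = 0.0143) and by 0.65 in ET3x1 (SE 0.17, adjusted p = 0.0121), and the difference in ET3x2, 0.36 (SE 0.17, adjusted p = 0.421), did not pass. The responses of the strains were not shown to differ: ET3x1 minus S was -0.05 (SE 0.23, adjusted p = 0.918) and ET3x2 minus S was -0.34 (SE 0.23, adjusted p = 0.671). Averaged over the strains it was called with any single rat left out. The S call was lost without low salt rat 1, whose 9.38 was the lowest value (adjusted p = 0.0502), and with S fitted alone (adjusted p = 0.13), and the ET3x1 call without rat 3 of either diet (adjusted p up to 0.054) or with the bioD minus bioC covariate (0.50, adjusted p = 0.108). With the Gapdh covariate the difference over the strains was 0.37 (adjusted p = 0.37).

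The brighter probe set of the same gene, 1375336_at, differed by 0.20 between high and low salt over the strains (SE 0.09, limma adjusted p = 0.126). It differed by 0.28 in S (SE 0.14, adjusted p = 0.278), by 0.06 in ET3x1 (SE 0.15, adjusted p = 0.824) and by 0.24 in ET3x2 (SE 0.15, adjusted p = 0.592), beside 0.70, 0.65 and 0.36 for 1375335_at in the same rats. The estimates of both probe sets were above 0 in every strain. For salt only 1375335_at passed, in S, in ET3x1 and averaged over the strains, but not in ET3x2. Which of them follows the transcript was not tested.

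The probe sets shared by Hsp90aa1 and its pseudogene Hsp90aa1-ps17 differed from each other. Probe set 1388850_at read 8.97, 8.96, 9.77, 9.52 and 9.75 in S on low salt and 9.65, 9.82, 10.64, 10.19 and 10.31 on high salt. On low salt it read 10.16, 10.11, 10.43 and 10.09 in ET3x1 and 10.01, 10.47, 10.05 and 10.37 in ET3x2. Every congenic rat thus lay above every S rat of that diet. Of all probe sets, 19.7% did not overlap between ET3x1 and S on low salt and 12.4% between ET3x2 and S. It was 0.81 higher in ET3x1 (SE 0.18, limma adjusted p = 0.00237) and 0.83 higher in ET3x2 (SE 0.18, adjusted p = 0.00253), and these differences share their S rats. It rose by 0.73 with salt in S (SE 0.17, adjusted p = 0.0179), a call lost without S rat 1 or 2 of the low salt group (adjusted p up to 0.0638) and with S fitted alone (adjusted p = 0.129).

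The second probe set of that pair, 1372701_at, went the other way on low salt, with a difference of -0.27 between ET3x2 and S (SE 0.10, limma adjusted p = 0.0478), a call lost without any 1 of 18 rats (adjusted p up to 0.114). It was also lost with the bioD minus bioC covariate (-0.15, adjusted p = 0.353), the Gapdh covariate (-0.20, adjusted p = 0.213), quantile normalization (adjusted p = 0.0668) and no filter (adjusted p = 0.0519). A further shared probe set, 1393555_at, names Hsp90ab1 and 5 of its pseudogenes, and was higher averaged over the diets in ET3x1 (0.25, SE 0.08, adjusted p = 0.016) and in ET3x2 (0.26, SE 0.08, adjusted p = 0.0126). None of these values can be assigned to Hsp90aa1 or Hsp90ab1 alone.

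Hspa8 encodes the constitutive cytosolic HSP70, and Hsph1 and Dnajb1 encode helpers of HSP70: Hsph1 is an HSP110, which exchanges its nucleotide, and Dnajb1 is an HSP40, which delivers substrates and stimulates its ATPase. The shared probe set of Hspa8 and Haus8l2, 1398240_at, fell by 0.16 with salt averaged over the strains (SE 0.04, limma adjusted p = 0.0116) and by 0.24 in ET3x1 (SE 0.08, adjusted p = 0.0311), the latter lost without rat 3 or 4 of either ET3x1 group (adjusted p up to 0.128) and with no filter (adjusted p = 0.0596). With the Gapdh covariate both calls were lost, at -0.20 (adjusted p = 0.243) and -0.32 (adjusted p = 0.268).

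The promoter of Hsph1 is shown because its probe set fell with salt and because it holds a heat shock element of 3 units, GAANNTTCNNGAA, which 222 of 33469 promoters (0.663%) held on either strand. It is printed from RefSeq, build GRCr8, at chr12:10427118-10427367 on the plus strand, 5′ to 3′, with the GAA and TTC units in capitals. The 3 units lie 36 to 24 bases before the start, and a separate pair lies 105 to 98 bases before it.
Hsph1: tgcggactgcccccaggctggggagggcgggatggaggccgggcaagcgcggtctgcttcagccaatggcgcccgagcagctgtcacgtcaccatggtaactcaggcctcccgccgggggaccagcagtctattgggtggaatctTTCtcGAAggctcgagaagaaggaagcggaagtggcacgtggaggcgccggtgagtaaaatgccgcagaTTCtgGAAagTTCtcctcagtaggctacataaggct
Hsph1 probe set 1388898_at read 9.77, 9.72, 10.33 and 10.17 in ET3x1 on low salt and 9.59, 9.61, 9.52 and 9.72 on high salt. These groups did not overlap, though narrowly, with 9.722 in the lowest low salt rat and 9.721 in the highest high salt rat. In S it read 9.65, 9.71, 9.76, 9.73 and 10.01 on low salt and 9.60, 9.48, 9.68, 9.83 and 9.80 on high salt, with overlap.

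Hsph1 probe set 1388898_at fell by 0.39 in ET3x1 (SE 0.12, 1.31-fold, limma adjusted p = 0.0286) and by 0.22 averaged over the strains (SE 0.07, adjusted p = 0.0285). The ET3x1 call was lost without low salt rat 3 or 4 or high salt rat 1, 2 or 3 of that strain, at adjusted p up to 0.15, and the averaged call without any 1 of 5 rats, at up to 0.0645. The averaged call was also lost without S rats 1 and 2 of the high salt group (-0.19, adjusted p = 0.0847). The second Hsph1 probe set, 1385620_at on the other array, differed by 0.03 in ET3x1 (SE 0.20, adjusted p = 0.933), and its rats of 1 group spread more (within-group SD 0.323 against 0.181). With the Gapdh covariate the difference of 1388898_at in ET3x1 was -0.55 (adjusted p = 0.228).

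Dnajb1 probe set 1388722_at read 8.75, 8.92, 9.19, 9.05 and 9.20 in S on low salt. On the same diet it read 9.31, 9.54, 9.82 and 9.60 in ET3x1 and 9.43, 9.43, 9.26 and 9.17 in ET3x2. Every ET3x1 rat lay above every S rat, which was 1 of 11 members without overlap where 19.7% of all probe sets had none, and the ET3x2 rats overlapped S by 1 rat. On high salt it read 8.98, 8.93, 9.34, 9.21 and 9.10 in S, 9.35, 9.22, 9.19 and 9.24 in ET3x1 and 9.24, 9.41, 9.27 and 9.22 in ET3x2, and the strains overlapped.

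On low salt Dnajb1 probe set 1388722_at was 0.54 higher in ET3x1 than in S (SE 0.10, 1.46-fold, limma adjusted p = 5.7e-04), and it was called with any single rat left out. In ET3x2 it was 0.30 higher (SE 0.10, 1.23-fold, adjusted p = 0.0353), a call lost without S rat 1, 2 or 4 or ET3x2 rat 1 or 2 of that diet, at adjusted p up to 0.125, and with the Gapdh covariate (0.25, adjusted p = 0.142). Averaged over the diets the ET3x2 difference was not called without S rats 1 and 2 of the high salt group (0.19, adjusted p = 0.0671). It fell by 0.32 with salt in ET3x1 (SE 0.10, adjusted p = 0.0365), a call lost without any 1 of 6 rats, namely rats 2, 3 and 4 of either diet, at adjusted p up to 0.169. The second Dnajb1 probe set, 1383302_at, had differences of 0.19 (SE 0.13, adjusted p = 0.288) and 0.29 (SE 0.13, adjusted p = 0.126) for the same strain comparisons, and 0.16 with salt in ET3x1 (SE 0.14, adjusted p = 0.465), against the sign of 1388722_at.

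Hspb1 encodes HSP27, a small heat shock protein that holds unfolded proteins without ATP and stabilises actin filaments. Its promoter is shown because Hspb1 alone among the members with a probe set of their own had salt responses called as different between strains. It is printed from RefSeq, build GRCr8, at chr12:26432302-26432551 on the minus strand, 5′ to 3′. The capitals mark pairs of GAA and TTC units, GAANNTTC, 129 to 122 and 109 to 102 bases before the start, a motif that 2420 of 33469 promoters (7.23%) held. The 3-unit element was not among its letters in this window.
Hspb1: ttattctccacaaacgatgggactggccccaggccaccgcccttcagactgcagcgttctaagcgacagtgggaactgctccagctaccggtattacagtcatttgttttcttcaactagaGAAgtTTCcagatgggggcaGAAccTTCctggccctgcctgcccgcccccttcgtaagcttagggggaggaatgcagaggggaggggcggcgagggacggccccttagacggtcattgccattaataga
In S, Hspb1 read 6.89, 7.40, 7.55, 7.06 and 7.72 on low salt and 7.46, 7.54, 7.60, 7.75 and 7.67 on high salt. In ET3x1 it read 7.71, 7.88, 8.30 and 7.95 on low salt and 7.48, 7.34, 7.34 and 7.48 on high salt. In ET3x2 it read 8.14, 7.97, 7.42 and 7.93 on low salt and 7.60, 7.80, 7.74 and 8.18 on high salt. The low salt S rats spread widely at the bottom of the range, the high salt ET3x1 rats lay below all their low salt counterparts, and the ET3x2 diets overlapped. Hspb1 was dim, with a mean over the 26 rats of 7.65 beside the brightness filter of 7.51 on RAE230A. Its means in S on low salt, 7.32, and in ET3x1 on high salt, 7.41, lay below that filter. It thus passed through the groups where it was higher, and the calls below rest on a signal near the filter. On high salt every ET3x2 rat was above every ET3x1 rat, 1 of 11 members where 18.1% of all probe sets did not overlap; on low salt 0 of 11 did so, against 9.55%.

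On low salt Hspb1 was 0.64 higher in ET3x1 than in S (SE 0.15, 1.56-fold, limma adjusted p = 0.00306) and 0.54 higher in ET3x2 (SE 0.15, 1.46-fold, adjusted p = 0.012). The first was called with any single rat left out, and the second was lost without ET3x2 rat 1 (adjusted p = 0.0701). Both were also called with the Gapdh covariate, at adjusted p of 0.00479 and 0.0433. Of 19 tested cell type markers, 5 were called higher and 5 lower in ET3x1 than in S on low salt, and 3 higher and 7 lower in ET3x2. In each congenic strain 3 of 3 leukocyte markers (Cd74, Coro1a and Fcer1g) were higher, and 2 of 2 podocyte and 1 of 2 endothelial markers lower. Of 4 proximal tubule markers, 2 were higher and 2 lower in ET3x1, and 2 lower in ET3x2. In ET3x2, 1 of 2 thick ascending limb and 1 of 4 distal and collecting duct markers were also lower. The part of these markers in the Hspb1 and Dnajb1 differences was not tested. The leukocyte list also holds Ptprc, which did not pass the brightness filter. Over its 4 genes the mean log2 signal ran from 8.14 to 8.48 in S on low salt. On that diet it ran from 8.71 to 8.84 in ET3x1 and from 8.40 to 8.85 in ET3x2.

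Hspb1 fell by 0.55 with salt in ET3x1 (SE 0.16, 1.46-fold, limma adjusted p = 0.0166). The difference was 0.28 in S (SE 0.14, adjusted p = 0.281) and -0.03 in ET3x2 (SE 0.16, adjusted p = 0.965). The salt response of ET3x1 minus that of S was -0.83 (SE 0.21, adjusted p = 0.0204), 1 of 11 members called where 5.49% of all probe sets were. Leaving out ET3x1 rat 3 of the low salt group, which read 8.30, ended both calls (adjusted p = 0.088 for the fall and 0.0644 for the difference of responses). With the Gapdh covariate the difference of responses was again -0.83, with an adjusted p of 0.222, and with the bioD minus bioC covariate it was -0.90 (adjusted p = 0.12). For ET3x2 minus S limma called 0 of 11 salt responses as different, against 0.0194% of all probe sets and with 0 at an unadjusted p below 0.05, and for ET3x2 minus ET3x1 0 of 11, against 0.304% and with 2. The shared probe set 1388850_at also passed for ET3x1 minus S, at -0.95 (SE 0.25, adjusted p = 0.0277), and was lost without any 1 of 5 rats (adjusted p up to 0.0771) and with the Gapdh covariate (-1.08, adjusted p = 0.196).

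Hspd1 and Hspe1 encode HSP60 and HSP10, the barrel and the lid of the mitochondrial chaperonin. In the rat their starts face each other on chromosome 9, and a stretch between them holds the 3-unit heat shock element. It is shown because the same bases lie in both promoters: 30 bases of the Hspe1 promoter from RefSeq, build GRCr8, at chr9:64084258-64084287 on the plus strand, 5′ to 3′, 69 to 40 bases before the Hspe1 start, with the GAA and TTC units in capitals.
Hspe1: tcggTTCtaGAAccTTCcgGAAggccccgc
Across rats, Hspd1 and Hspe1 had a within-group r of 0.03, given with the other pairs below. Both varied little, with within-group SDs of 0.0755 and 0.0898 on the log2 scale, the smallest of the 15 probe sets. Hspe1 read 12.54, 12.40, 12.42 and 12.46 in ET3x1 on low salt and 12.74, 12.73, 12.72 and 12.56 on high salt, without overlap, and rose by 0.23 (SE 0.07, 1.18-fold, limma adjusted p = 0.0226). Averaged over the strains it rose by 0.12 (SE 0.04, adjusted p = 0.044). The first call was lost without low salt rat 2 or 3 or high salt rat 1, 2 or 3, at adjusted p up to 0.0767, and the second without any 1 of 17 rats, at up to 0.0779. After quantile normalization the ET3x1 call was lost (adjusted p = 0.0524) and the averaged difference was 0.05 (adjusted p = 0.481). With no filter the averaged call was lost (adjusted p = 0.0743), and without S rats 1 and 2 of the high salt group it was 0.10 (adjusted p = 0.108).

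Hspd1 had a salt difference of 0.04 in ET3x1 (SE 0.06, limma adjusted p = 0.709) and 0.12 in S (SE 0.06, adjusted p = 0.273). Its only call was a difference of -0.11 between ET3x1 and S averaged over the diets (SE 0.04, adjusted p = 0.0428). It was lost without any 1 of 13 rats, at adjusted p up to 0.096, and centring the array medians ended it (-0.09, adjusted p = 0.0996), as did leaving out S rats 1 and 2 of the high salt group (-0.10, adjusted p = 0.114), either quality covariate (adjusted p = 0.0781 with Gapdh and 0.0629 with bioD minus bioC) and fitting with no filter (adjusted p = 0.0624).

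The other genes of the chaperone system are described from 69 tested probe sets, 1 a gene, of a list of 79 genes. Their calls are given from the fit without covariates alone. With the Gapdh covariate 25 of 15473 probe sets were called for salt averaged over the strains, and 6 in ET3x1. Whether genes of this list were among these was not examined. With salt averaged over the strains 4 rose and 5 fell of 69, so 9 of 69 were called, near the 14.5% of all tested probe sets, with a median difference of -0.0002 beside -0.0012 over all of these. All 5 that fell were among the 19 tested endoplasmic reticulum genes, of which 2 rose and 5 fell (median -0.09). Xbp1, the transcription factor that is spliced in the unfolded protein response, fell by 0.33 (SE 0.05, limma adjusted p = 1.6e-04). Manf, a secreted protein of that response, fell by 0.30 (SE 0.09, adjusted p = 0.0165), and Herpud1, which takes part in the degradation of misfolded proteins, fell by 0.30 (SE 0.07, adjusted p = 0.00416). Hspa9, the mitochondrial HSP70, rose by 0.32 (SE 0.05, adjusted p = 1.4e-04), Canx, the lectin chaperone calnexin, rose by 0.30 (SE 0.07, adjusted p = 0.00585), and Dnaja3, a mitochondrial HSP40, rose by 0.26 (SE 0.06, adjusted p = 0.00418).

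In ET3x1 alone 4 of 69 rose and 7 fell, a share like the 15.9% of all probe sets called, with a median of -0.08 beside -0.03. Manf fell by 0.64 (SE 0.15, limma adjusted p = 0.00561), Ddit3, the stress-induced transcription factor CHOP, fell by 0.58 (SE 0.13, adjusted p = 0.00276) and Xbp1 fell by 0.55 (SE 0.10, adjusted p = 3.2e-04), beside the fall of 0.76 of Hspa5. Canx rose by 0.52 (SE 0.13, adjusted p = 0.00746), Bag4, an HSP70 regulator, rose by 0.50 (SE 0.11, adjusted p = 0.00383) and Hspa9 rose by 0.44 (SE 0.09, adjusted p = 0.0021). In S, where 2.78% of all probe sets were called, 3 of 69 rose and 0 fell: Ppp5c, a phosphatase bound to HSP90, by 0.43, Serpinh1, the collagen chaperone HSP47, by 0.42, and P4hb, a protein disulfide isomerase, by 0.37. In ET3x2 limma called 0 of 69, where 0.304% of all were called, and 8 had an unadjusted p below 0.05.

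Of the 21 genes whose promoters hold the endoplasmic reticulum stress element, 9 were tested, and their calls here are likewise from the fit without covariates. With salt averaged over the strains 3 of the 9 fell (Hspa5, Xbp1 and Creld2) and 1 rose (Canx), with a median of -0.09. Of all probe sets 14.5% were called in that comparison. Any part of the element in these differences was not tested. Creld2 fell by 0.23 (SE 0.06, limma adjusted p = 0.0172). Calr, the lectin chaperone calreticulin, differed by -0.09 (SE 0.04) and did not pass.

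**Figure D4:**
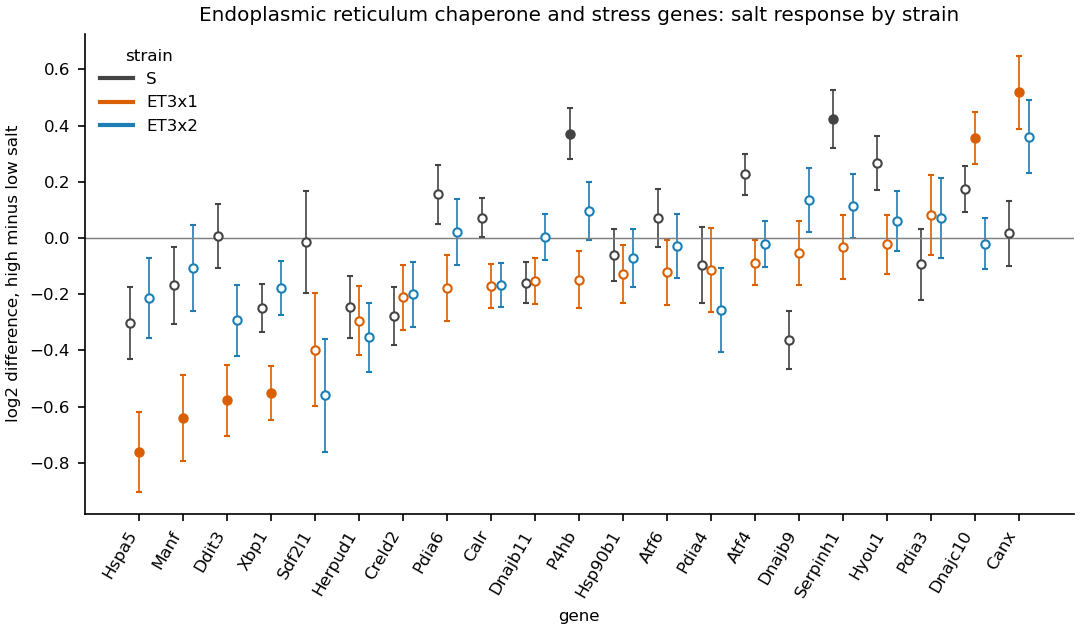
Log2 difference between high and low salt (y axis) of Hspa5, Hsp90b1 and the 19 tested endoplasmic reticulum chaperone and stress genes (x axis, ordered by the difference in ET3x1), by strain. Points are limma estimates, bars are standard errors, and filled points passed an adjusted p of 0.05: Hspa5 (-0.76), Manf, Ddit3 and Xbp1 below 0 and Canx and Dnajc10 above 0 in ET3x1, P4hb and Serpinh1 above 0 in S, and none in ET3x2.

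On low salt, more of the called genes of this list were higher than lower in the congenic strains. The calls over all probe sets were not split into higher and lower. The direction is therefore not shown to be particular to this list. In ET3x1 20 of 69 were higher than in S and 3 lower, so 23 were called, where 26.8% of all probe sets were, with a median of 0.14 beside 0.02 over all tested probe sets. The HSP90 co-chaperones made up 5 of the 20, among 9 tested, and 1 of the 3 lower. Sdf2l1, an endoplasmic reticulum protein of the HSP40 complex, was 0.73 higher (SE 0.19, limma adjusted p = 0.00733), Cdc37, which loads kinases onto HSP90, was 0.65 higher (SE 0.13, adjusted p = 9.0e-04), and Manf was 0.54 higher (SE 0.15, adjusted p = 0.00813). Dnajc10 (-0.34), Ppid (-0.33) and Cct6a (-0.26) were lower.

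In ET3x2 10 of 69 were higher than in the same S rats and 4 lower, a share near the 18.2% of all probe sets called, with a median of 0.04 beside 0.02. Sdf2l1 was 0.60 higher (SE 0.19, limma adjusted p = 0.0305), Trap1, the mitochondrial HSP90, was 0.41 higher (SE 0.12, adjusted p = 0.0181) and Ddit3 was 0.40 higher (SE 0.12, adjusted p = 0.0232). Canx (-0.56), Dnajb9 (-0.39) and Cct6a (-0.38) were lower. On high salt 1 of 69 was higher and 1 lower in ET3x1, below the 14.5% of all probe sets called, and 0 higher and 3 lower in ET3x2, near the 4.25% called there.

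Across rats, most pairs of members outside the mitochondrial pair varied together. For each of 8 genes the brightest probe set was taken as its deviation from the mean of the rat's own group. This removes differences between group means, but not differences of spread. The SD of Hspa5, for one, was 0.379 in ET3x1 on low salt and 0.0972 on high salt, so groups weigh unequally. Of 28 pairs 12 had an adjusted p below 0.05 for Pearson's r over the 26 rats, all 12 with r above 0, in permutation tests with 100000 resamples within groups. Spearman's rho also passed in 12. The share of pairs of other genes that would pass was not computed, so this is not shown to be particular to the members. Hspa5 and Hsph1 had the highest correlation (r = 0.87, permutation p = 4.0e-05, adjusted p = 0.00112; rho = 0.90, permutation p = 2.0e-05), and r was 0.85 without the 2 rats farthest from the median of Hspa5.

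Hsp90ab1 and Hspb1 followed (r = 0.77, permutation p = 9.1e-04, adjusted p = 0.00625; rho = 0.62, permutation p = 0.0085), with r = 0.71 without the 2 farthest rats. Hsp90b1 and Hsph1 had r = 0.75 (permutation p = 0.00228, adjusted p = 0.00912), and 0.64 without the 2 farthest rats. Hspa5 and Hsp90b1 had r = 0.71 (permutation p = 0.00766, adjusted p = 0.0195, and for rho = 0.65, permutation p = 0.00833), and again 0.71 without the 2 farthest rats. The last pair shares the stress element, which was not found in the Hsph1 promoter. Any part of the element in these correlations was not tested. Hspd1 and Hspe1 entered none of the 12 pairs, and their own r was 0.03 (permutation p = 0.872, adjusted p = 0.939; rho = -0.06, permutation p = 0.783). With the Gapdh and spike-in measures taken out of the deviations, the correlation of Hspa5 with Hsph1 was 0.86, that of Hsp90ab1 with Hspb1 0.78 and that of Hspa5 with Hsp90b1 0.79. The values of a rat share 1 array, 1 tissue piece and 1 normalization, whose part in these correlations was not tested.

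**Figure D5:**
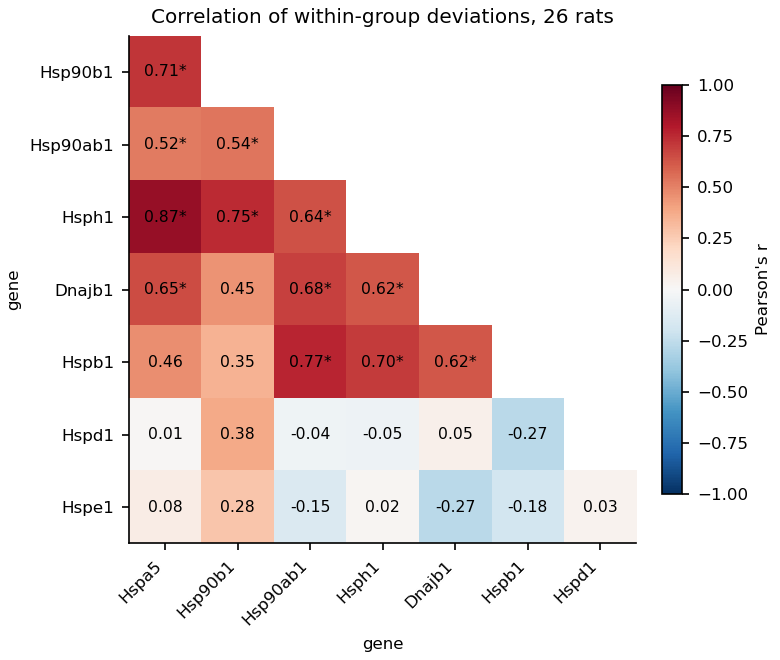
Pearson's r between members (rows and columns) of the deviations from group means over 26 rats, for the brightest probe set of each of 8 genes. Colour and number give r, and an asterisk marks an adjusted p below 0.05 over the 28 pairs; the 12 marked pairs all lie among the 6 genes outside the mitochondrial chaperonin, from 0.52 to 0.87.

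Over all 26 rats, with strain and diet left in, the genes most like Hspa5 were Xbp1 (r = 0.91), the junction protein gene Pkp4 (0.83) and Herpud1 (0.80). For Hspd1 they were Etnk1 (0.84), an ethanolamine kinase, Tspan7 (0.84), a tetraspanin, and Acss2 (0.83), an acetyl-CoA synthetase. For Hsp90ab1, taken in place of Hspa8 once Hspa8 proved to have no probe set of its own, they were Eif4a1 (0.86), a translation initiation helicase, Vcp (0.86), an ATPase that extracts proteins for degradation, and Caprin1 (0.86), an RNA-binding protein. By deviations from group means, r with Hsp90ab1 was 0.88 for Eif4a1, 0.82 for Vcp and 0.87 for Caprin1, beside 0.87 for the highest pair of members. These likenesses were picked as the highest over all 26 rats among all tested non-member genes and carry no test.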

How the data were processed

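The authors deposited 1 log2 signal per probe set and array, in a table for each chip; their scaling and normalization method is not given in the sources used here. Medians of the arrays lay within 7.47 to 7.52 on RAE230A and 6.34 to 6.40 on RAE230B. The groups come from the labels, and no column was without a sample. Control probe sets were left out, and probe sets with a mean over the 26 rats below the median of their chip (7.51 on RAE230A, 6.38 on RAE230B) were not tested, which left 7933 and 7540; of 100 probe sets present on both chips, the RAE230A copy alone was tested. Each chip was fitted with 6 group means in limma 3.58.1 (R 4.3.3; eBayes with trend, 20 residual degrees of freedom), and p-values were adjusted over both chips. Exact permutation tests and correlations used SciPy 1.17.1; tests are two-sided. The fit was tested on simulated data.

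The members and gene lists were chosen with earlier results of these data known. All members are named; of the other chaperone genes, up to 3 called genes each way per comparison, by size of change. 11 member, 4 shared and 69 other chaperone probe sets were described. Alternatives were quantile normalization, centred medians, other filters, no trend, quality covariates, the compared strains alone and leaving out single rats. Promoters came from RefSeq (GRCr8), with an entry for 9 of the 10 genes.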

Additional observations from a re-analysis of the deposited data

Results flagged for a closer look

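In 3 of 90 groups of rats, 1 rat lay far from the rest of its group by Dixon's criterion, which chance alone meets in about 1 in 20 groups. Hspa5 read 11.59 in S rat 5 on low salt, where the next highest rat read 11.22. Hsph1 probe set 1385620_at read 7.66 in ET3x2 rat 3 on low salt, where the next lowest read 8.48. Hspe1 read 12.56 in ET3x1 rat 4 on high salt, where the next lowest read 12.72.

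By the limma interaction term, the salt response was called as different between ET3x1 and S for Hspb1 (-0.834 on the log2 scale, adjusted p = 0.0204). The shared Hsp90aa1 probe set 1388850_at was called too (-0.9484, adjusted p = 0.0277). Of all tested probe sets 5.49% were called. The Hspb1 call was lost without ET3x1 rat 3 of the low salt group (adjusted p = 0.0644). That of 1388850_at was lost without any 1 of 5 rats (adjusted p up to 0.0771). Both were lost with the Gapdh covariate.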

How the results depend on the processing

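No called difference of a member or shared probe set changed sign under any alternative. Of the 34 called differences, 29 were also called after quantile normalization, 33 with centred array medians, 29 with no filter, 34 without the intensity trend, 14 with the Gapdh covariate, 27 with the bioD minus bioC covariate, and 28 without S rats 1 and 2 on high salt, an alternative chosen after seeing the data; 29 of the 29 still tested among the brightest 25% were called, and 26 of 29 with the compared strains alone. With the Gapdh covariate the count of members called for salt went from 4 to 0 over the strains, from 6 to 0 in ET3x1 and from 1 to 0 for the response of ET3x1 minus S, while calls over all probe sets went to 25, 6 and 27; ET3x2 against S gave 1 on low salt and 1 on high salt. With the bioD minus bioC covariate the count was 1 for ET3x1 against S over the diets, 1 on high salt, and 0 for the response of ET3x1 minus S. ET3x1 against S over the diets also gave 1 with centred medians, with no filter and without the 2 S rats, and salt over the strains gave 2 without them. ET3x2 against S on high salt gave 1 after quantile normalization and 1 with the compared strains alone, where salt in S gave 0. Among the brightest 25% (10 members tested, without Hspb1), ET3x1 against S on low salt gave 1 and the response of ET3x1 minus S gave 0. The cause of these changes was not tested, except that Hspb1 is not among the brightest 25%.

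Leaving out 1 rat gave 1 to 3 members for ET3x1 against S over the diets, 3 to 6 for ET3x2 against S, 0 to 1 between the congenic strains, 2 to 3 and 1 to 5 for the congenic strains against S on low salt, 0 to 1 for ET3x2 against S on high salt, 2 to 5 for salt over the strains, 0 to 1 in S, 1 to 6 in ET3x1, and 0 to 3 for the response of ET3x1 minus S. The other 6 comparisons gave 0 each time. The 12 correlated pairs were 12 with the quality measures taken out and 11 without the 2 farthest rats. No paired analysis was possible because the labels give the rats no shared replicate numbers.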
